A study of Bombus terrestris with 20 samples.

Results

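The genes described here are those whose transcripts were much more abundant in the ovaries of ovary-active than of ovary-inactive Bombus terrestris workers and were also abundant in the eggs that workers lay. A gene was a member when its mean in ovary-active ovary was at least 4 times its mean in ovary-inactive ovary, both egg libraries held an estimated count of at least 2000, replicate 2 of ovary-inactive ovary was under 4 times the larger of replicates 1 and 3, and the fat body mean of ovary-inactive workers was under 1.5 times that of ovary-active workers or the gene was not listed in fat body. Of the 10661 genes in any table, 102 were members. The ratio alone was met by 619 of the 10087 genes in the ovary table, and the ratio and the egg minimum together by 158. The condition on replicate 2 then removed 48 genes and the fat body condition 8 more. The members were therefore chosen by their ovary, fat body, and egg values, which are given below as a description. Where a count of members called in ovary or fat body is printed, nothing is read from it. The brain values were not used in the choice.

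Workers of the bumblebee subspecies B. terrestris audax were taken from queenright colonies past the competition point, the stage at which workers begin to lay in the presence of the queen, and were classed by dissection as ovary-active (OA) or ovary-inactive (OI), those with intermediate ovaries being left out. Brain, fat body, and ovary each gave 3 mRNA-seq libraries of each phenotype, every library being a pool of tissue, with 7 workers per pool in ovary and fat body. One pool of OI brains held more workers and another came from later colonies, and the sources used here do not say which replicates these were. Eggs from worker microcolonies, collected within an hour of laying, gave 2 libraries, made and sequenced by another provider than the tissues. The pools of the phenotypes were matched for age, mostly with workers of different colonies, so that colony and phenotype cannot be told apart. No treatment was applied to either phenotype.

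A bee ovary is made of ovarioles, tubes that each hold a string of egg chambers, in which nurse cells and an oocyte of the germ line are served by somatic follicle cells. As an oocyte grows, the nurse cells fill it with messenger RNA and protein, and the embryo lives on these maternal stores until its own genome is switched on. A freshly laid egg therefore holds mostly RNA made in the mother's ovary, and worker eggs, being unfertilized, hold no sperm. In an ovary-inactive worker most ovarioles remain thread-like, with few or no growing oocytes. In pooled tissue, fewer cells of a type and less RNA per cell cannot be told apart.

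The thresholds cut through a continuum. Just inside the ovary ratio lay LOC100642789 at 4.02, LOC100648261 at 4.03, and LOC100649610 at 4.06, and just outside it LOC100648522 at 3.96, LOC105667074 at 3.96, and LOC105666148 at 3.93. For the lower egg estimated count, LOC100646487 at 2143, LOC100651338 at 2178, and LOC105666393 at 2235 were inside, and LOC105666874 at 1929, LOC100650639 at 1787, and LOC100649864 at 1721 outside. For replicate 2 of OI ovary over the larger of the others, LOC100646544 at 3.85, LOC100650628 at 3.73, and LOC105665828 at 3.68 were inside, and LOC100643057 at 4.11, LOC100648482 at 4.41, and LOC100650188 at 5.06 outside. For the fat body ratio of OI to OA, LOC100651336 at 1.499, LOC105666393 at 1.46, and LOC100647341 at 1.38 were inside, and LOC100647835 at 1.504, LOC100647121 at 1.72, and LOC100642988 at 1.77 outside.

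**Figure D1:**
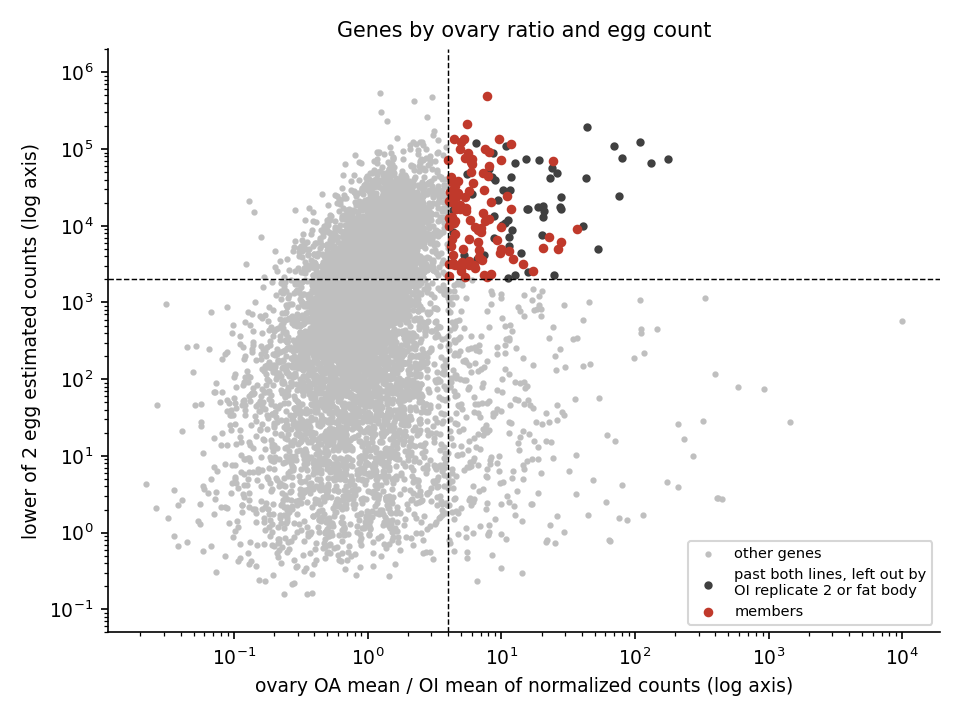
Each point is a gene of the ovary table, with the ratio of the OA to the OI mean of its normalized counts in ovary on the x axis and the lower of its 2 egg estimated counts on the y axis, both on log axes; genes under 0.1 in an egg library or at 0 in ovary are not drawn. Dashed lines mark the ratio of 4 and the egg count of 2000, red points are the 102 members, and dark points are the genes past both lines that the replicate 2 or fat body condition left out.

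The deposited normalized counts summed to 28686261 to 32308744 per OA ovary library and 23371269 to 24006271 per OI ovary library, to 28305650 to 29999205 in fat body, and to 23894703 to 24821992 in brain apart from replicate 2 of OA brain, which summed to 32263286. The egg libraries held 50166010 and 52324103 estimated counts. The 102 members together made up 6.90% and 8.08% of the egg libraries. They made up 2.87% to 3.38% of the OA ovary libraries and 0.464% to 0.920% of the OI ovary libraries, the highest of these being OI replicate 2. The egg values are corrected for transcript length and the ovary values are not, so egg and ovary shares cannot be compared in size. Gene names were available for 2219 genes, which included 17 members, of which 4 were named as uncharacterized proteins. The remaining members are given by their identifiers. The annotated muscle genes (9 genes, mostly titins) summed to 37197 to 44697 normalized counts in OA ovary and 53793 to 78100 in OI ovary. The annotated neuronal genes (6 genes) summed to 9424 to 10385 and 17575 to 22177. Both sums were thus lower in every OA than in every OI ovary library, and their part in the ovary ratios was not tested. Single genes differed. With limma (adjusted p under 0.05), 6 of 9 muscle genes were called higher in OI and 1 higher in OA. Of 5 neuronal genes tested, 2 were called higher in OI and 1 higher in OA. The germ line list held only maelstrom 2, itself a member, and the piwi-like gene Ago3, and no annotated gene marked eggshell or follicle cells. In the brain libraries the neuronal genes summed to 17855 to 26637, which overlaps OI ovary, so this list did not tell brain from ovary. The fat body list held a single annotated gene, a member, so the fat body label was not checked.

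Egg estimated counts are corrected for transcript length and can be compared between genes. The member with the most egg transcript was LOC105666656, with 491247 and 680685 estimated counts, the second and first of all 10661 genes in the egg table, or 0.979% and 1.30% of the libraries. In OA ovary it had normalized counts of 52256, 74618, and 74408, and in OI ovary 5534, 16236, and 4169, a ratio of 7.76. The lowest OA library thus stood above the highest OI library, which was replicate 2. In the 6 brain libraries it was at 1.74 to 23.7 normalized counts.

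Behind it came LOC100648144, with 210027 and 244633 egg estimated counts. Its ovary normalized counts were 29879, 37920, and 58574 in OA and 7854, 10580, and 4229 in OI, a ratio of 5.58. LOC100648033 had 135607 and 181097 in eggs, 11550, 16410, and 24758 in OA ovary, and 1014, 3544, and 936.7 in OI ovary, a ratio of 9.60. In both genes the groups did not overlap, OA replicate 3 was the highest library, and OI replicate 2 was the highest OI library. LOC100645624 had 133226 and 167063 in eggs and an ovary ratio of 4.42. LOC100651578 had 91803 and 121176 and a ratio of 8.08, and LOC100646267 had 88936 and 113317 and a ratio of 5.61. These last 3 genes also kept the phenotypes apart in ovary, and they differed in brain, where LOC100646267 had 2068 to 2465 normalized counts, LOC100645624 had 779.4 to 1184, and LOC100651578 had 22.4 to 47.8. The other 4 genes among the 10 with the highest egg counts are maelstrom 2 and the neighbors LOC100645399, LOC100645738, and LOC100645858, described below. Both egg counts were at least 100000 for 8 members and at least 10000 for 58, and 19 members were among the first 100 genes of both egg libraries. The egg minimum was part of the rule, and the median egg count of the members, 13575, against 5963 for the 3819 other genes of the ovary table that met that minimum, was not tested.

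**Figure D2:**
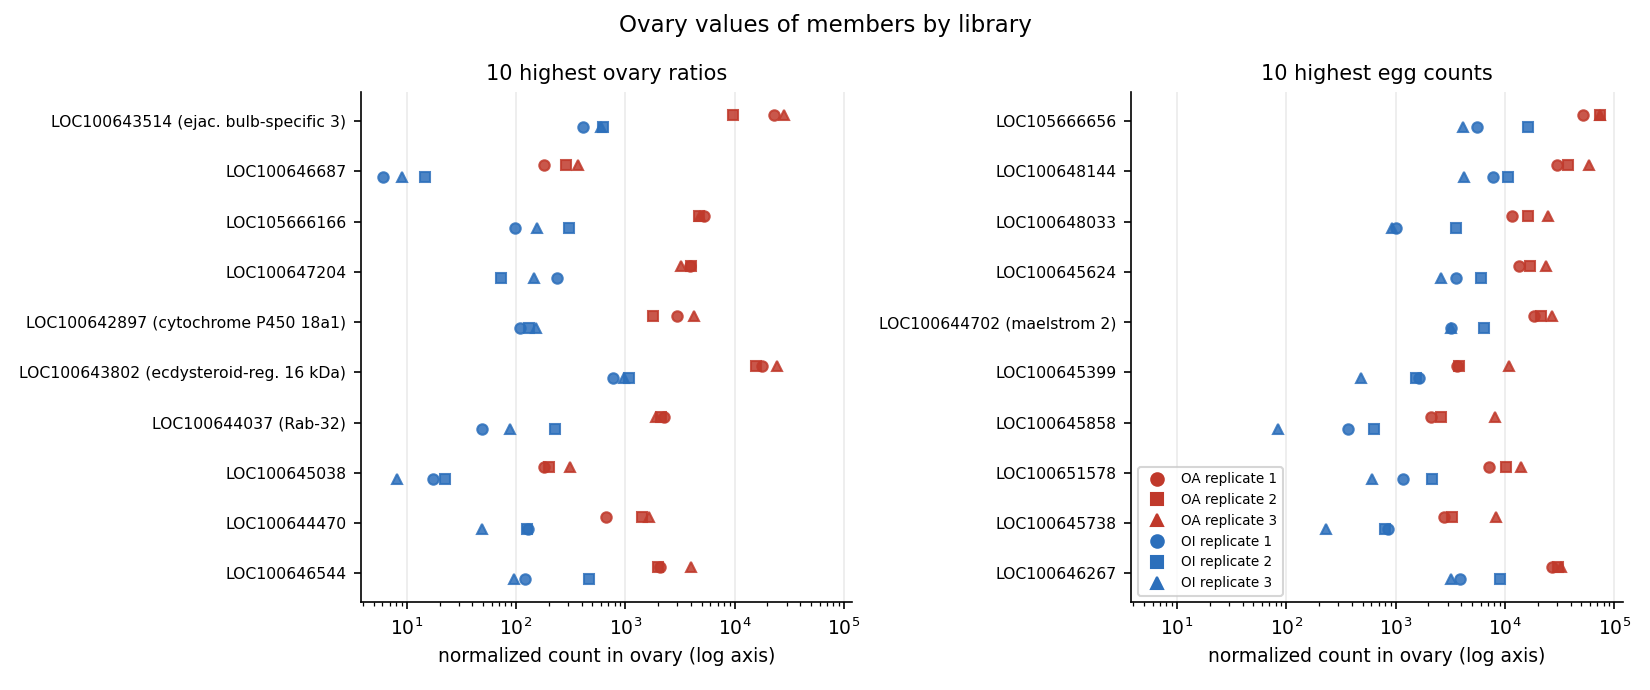
Normalized counts in ovary (log axis) of the 10 members with the largest ratio of OA to OI and the 10 with the highest egg estimated counts, with 1 point per library, red for OA and blue for OI, and the shape giving the replicate. In every gene drawn the 3 red points lie to the right of the 3 blue points, as the rule favors, with LOC100643514 at a ratio of 37.1 and LOC105666656 at 7.76.

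Germ line genes of other insects lend their names to 2 members. LOC100644702 is named protein maelstrom 2, after a Drosophila gene that acts in the piRNA pathway, which silences transposons in the germ line. Its egg estimated counts were 134184 and 155834, its ovary normalized counts 18635, 21574, and 27193 in OA and 3200, 6415, and 3236 in OI, and its ratio 5.25. It was low elsewhere, with 20.7 to 28.5 in brain and 11.1 to 26.4 in fat body. LOC100643010 is named protein ovo, after the Drosophila zinc finger transcription factor that female germ cells need. It had 10101 and 9598 in eggs, 3643, 5189, and 4411 in OA ovary, and 291.5, 879.2, and 163.3 in OI ovary, a ratio of 9.93. Its brain values of 44.0 to 69.8 and its fat body values of 37.5 to 56.1 were also low.

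The rule fixed the direction of maelstrom 2 in ovary, so it says nothing about the other annotated genes of the piRNA pathway and germ plasm. Of the 4 others tested in ovary with limma (adjusted p under 0.05), 0 were called higher in OA, the piwi-like gene Ago3 and germ cell-less, named after a Drosophila gene of germ cell formation, were higher in OI, and tudor and TDRD12 were not called. The ovary means of Ago3, a slicer of transposon RNA in Drosophila, were 2315 in OA and 5238 in OI (log2 fold change of -1.17 ± 0.15, SE), and its egg counts were 320.4 and 251.1. Of all 9496 genes tested in ovary, 27.3% were called higher in OA and 26.7% higher in OI. With libraries scaled to their totals these were 1572 and 3794 genes, against 2592 and 2531, because the OA libraries had larger sums, and the median change over the genes tested moved from 0.02 to -0.32 on the log2 scale. Of the piRNA list, 2 genes were called higher in OI under both scalings.

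Further lists of annotated genes held no member. The histone H2B-like gene LOC100644116 met the ovary ratio and the egg minimum. It had ovary means of 7331 in OA and 844.7 in OI, and egg counts of 90152 and 111530. The replicate 2 or fat body condition left it out. Of all genes tested in ovary, 27.3% were called higher in OA and 26.7% higher in OI. Histones were higher in OA in 6 of 6 genes (median log2 fold change 1.45), or 4 of 6 with libraries scaled to their totals. Reads of near-identical histone copies may have been shared between them. Proteasome subunits were higher in OA in 15 of 16 (median 0.94), also with libraries scaled to their totals. These lists were among the most one-sided. Of 21 cytoplasmic ribosome genes, 5 were called higher in OA and 0 higher in OI, and of 17 DNA repair genes 2 and 4. Annotated genes of maternal mRNA control, the machinery that stores, silences, and awakens stored transcripts, were called higher in OA in 3 and higher in OI in 3 of 7, or in 1 and 3 with libraries scaled to their totals. In the list labeled maternal axis patterning, 4 of 7 genes were called higher in OI and 0 higher in OA. The called genes were dorsal, giant-lens, pangolin, and frizzled-7-B. Their egg counts ran from 1.17 (giant-lens) to 847.0 (dorsal). Those of cactus, armadillo, and spaetzle, which were not called, ran from 4224 to 14697. Whether the called genes act in maternal patterning in this bee was not tested. In the brain, 0 genes of any of these lists were called.

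Among the 2219 genes with a name, the only yolk gene was LOC100643258, a vitellogenin-like precursor. Yolk genes without a name here, including any other vitellogenin gene, were not covered. Vitellogenin is the major yolk protein precursor of insects and is classically made in fat body and taken up by the oocyte. This gene had 1155, 1854, and 1763 normalized counts in OA ovary and 115.2, 370.5, and 83.9 in OI ovary, a ratio of 8.38, and 2353 and 3053 in eggs. In fat body it was at 0 to 6.69 in the 6 libraries, and in brain at 39.8 to 96.6, with the highest value in OA replicate 2. It therefore had its higher values in the ovary and not in the fat body, as far as tables normalized separately can be set side by side.

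Of the 10 members with the largest ovary ratios, 4 had a descriptive name. The largest ratio, 37.1, belonged to LOC100643514, ejaculatory bulb-specific protein 3, which takes its name from a secreted Drosophila protein of a family of small insect carrier proteins. It had 22826, 9678, and 28397 in OA ovary against 412.8, 630.1, and 600.5 in OI ovary, and 9130 and 9640 in eggs. Its levels elsewhere were well above detection, with 1071 to 1748 in brain, where the phenotypes overlapped. In fat body it had 634.4, 668.4, and 483.0 in OA and 774.8, 730.7, and 759.3 in OI. Every OA library was thus below every OI library there, as in 15.2% of the genes tested in fat body. The difference was small (log2 fold change of -0.36 ± 0.13, SE) and was not called with limma.

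LOC100642897, cytochrome P450 18a1, is named after the Drosophila enzyme that inactivates ecdysteroids, the steroid hormones of molting and oogenesis. It had 2958, 1789, and 4229 in OA ovary and 109.5, 130.4, and 152.2 in OI ovary, a ratio of 22.9, and 8419 and 7131 in eggs. LOC100643802, ecdysteroid-regulated 16 kDa protein, bears the name of a moth protein whose transcript responds to ecdysteroids. It had 17904, 15670, and 24640 in OA ovary and 777.7, 1090, and 974.6 in OI ovary, a ratio of 20.5. Its egg libraries disagreed, with 14750 and 5118. In fat body it stood at 18821 to 25994 in all 6 libraries, with overlapping phenotypes, so an abundant fat body transcript went with a 20.5-fold ovary ratio.

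LOC100644037, the ras-related protein Rab-32, is a small GTPase of lysosome-related organelles. It had 2244, 2139, and 1895 in OA ovary and 49.2, 228.4, and 88.6 in OI ovary, a ratio of 17.1, and 2793 and 2543 in eggs. The other 6 of the 10 largest ratios belonged to genes without a descriptive name here. LOC100646687 had a ratio of 27.9 on low counts (182.1, 284.3, and 365.9 against 6.11, 14.6, and 9.10) and was not listed in brain. LOC105666166 had a ratio of 26.4, LOC100647204 of 24.4, LOC100645038 of 14.6, the uncharacterized LOC100644470 of 12.3, and LOC100646544 of 11.9. Among these, LOC100647204 had 70004 and 88828 egg counts and at most 14.3 normalized counts in any fat body library and 7.11 in any brain library. LOC100644470 was the reverse, with 3742 and 4072 in eggs and 31966 to 46605 in fat body.

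The remaining named members were enzymes, a chromatin factor, and others, chosen for mention after their values were seen because they have a name. LOC100643900, 15-hydroxyprostaglandin dehydrogenase, named for an enzyme that inactivates prostaglandins in mammals, had 99480 and 99504 in eggs, 16794, 19153, and 18032 in OA ovary, and 2749, 7062, and 1255 in OI ovary, a ratio of 4.88. It was at 2.36 to 8.87 in brain and 2.57 to 12.2 in fat body. LOC100644916, hydroxylysine kinase, had 60500 and 79753 in eggs and a ratio of 8.05, with 1395 to 1699 in brain. LOC100642789, RWD domain-containing protein 2A, had 71973 and 90754 in eggs and a ratio of 4.02. LOC100644961, the catalytic subunit of histone acetyltransferase type B, which acetylates newly made histones before their assembly into chromatin, had 13062 and 14598 in eggs, 3821, 4805, and 5578 in OA ovary, and 831.8, 1643, and 864.4 in OI ovary, a ratio of 4.25. LOC100645023, mucin-5AC, had 12302 and 13743 in eggs and a ratio of 8.07, with 1.90 to 14.4 in fat body. LOC100643737, a glucose dehydrogenase of the oxidoreductases that use FAD, had 15436 and 17712 in eggs and a ratio of 5.44. By mean egg count the named members ran from maelstrom 2, with 134184 and 155834, down to Rab-32, with 2793 and 2543.

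Over all 102 members the ovary ratio ran from 4.02 to 37.1 with a median of 5.71, and 77 members lay under 8, 18 from 8 to under 16, and 7 at 16 or more. The 364 genes that met the same ovary and fat body conditions but fell short of the egg minimum had a median ratio of 8.45, and 102 of them reached 16. Every OA library was above every OI library in 101 members, where 33.3% of all genes tested showed this, and limma called 101 of the 102 higher in OA, against 27.3% of all genes. Since the rule used this contrast, nothing is read from these counts.

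The exception was LOC100650628. Its ovary normalized counts were 101.1, 146.4, and 11.1 in OA and 11.3, 42.4, and 7.08 in OI, so that OA replicate 3 fell among the OI libraries. Its ratio of 4.25 rests on the other OA libraries and on low counts. In eggs it was nonetheless at 3206 and 4574. Its direct neighbor in the gene order, LOC100649275, was also a member, with 1834, 2809, and 1473 in OA and 257.5, 745.7, and 169.8 in OI, and there the groups were apart.

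The libraries of 1 phenotype also stood in a frequent order over the members. The rule used these same libraries, through their means in the ovary ratio and through its limit on replicate 2. The shares below are therefore not independent of the choice of members and were not tested. Replicate 2 was the highest OI ovary library in 92 of 102 members (90.2%), against 36.4% of the 9496 genes tested, 65.8% of the 2592 genes called higher in OA, 57.3% of the 3819 other genes that met the egg minimum, and 36.3% of the 364 genes under the egg minimum. OI replicate 2 stood at a median of 2.02 times the mean of OI replicates 1 and 3 over the members, 1.16 times over the genes called higher in OA, 1.09 times over the 3819 genes, and 1.02 times over the 364 genes. Only LOC100647204 and LOC110120047 had their lowest OI value in replicate 2. Without OI replicate 2 the median ratio of the members was 7.84 in place of 5.71. Among OA libraries replicate 3 was the highest in 67 members (65.7%), against 57.1% of the genes called higher in OA, 52.7% of the 3819 other genes that met the egg minimum, 33.5% of the 364 genes, and 41.8% of the genes tested. Replicate 1 was the lowest in 75 members (73.5%), against 45.4%, 47.8%, 25%, and 33.6% of the same sets. Pools are the only replicates here, and what set these pools apart was not tested.

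**Figure D3:**
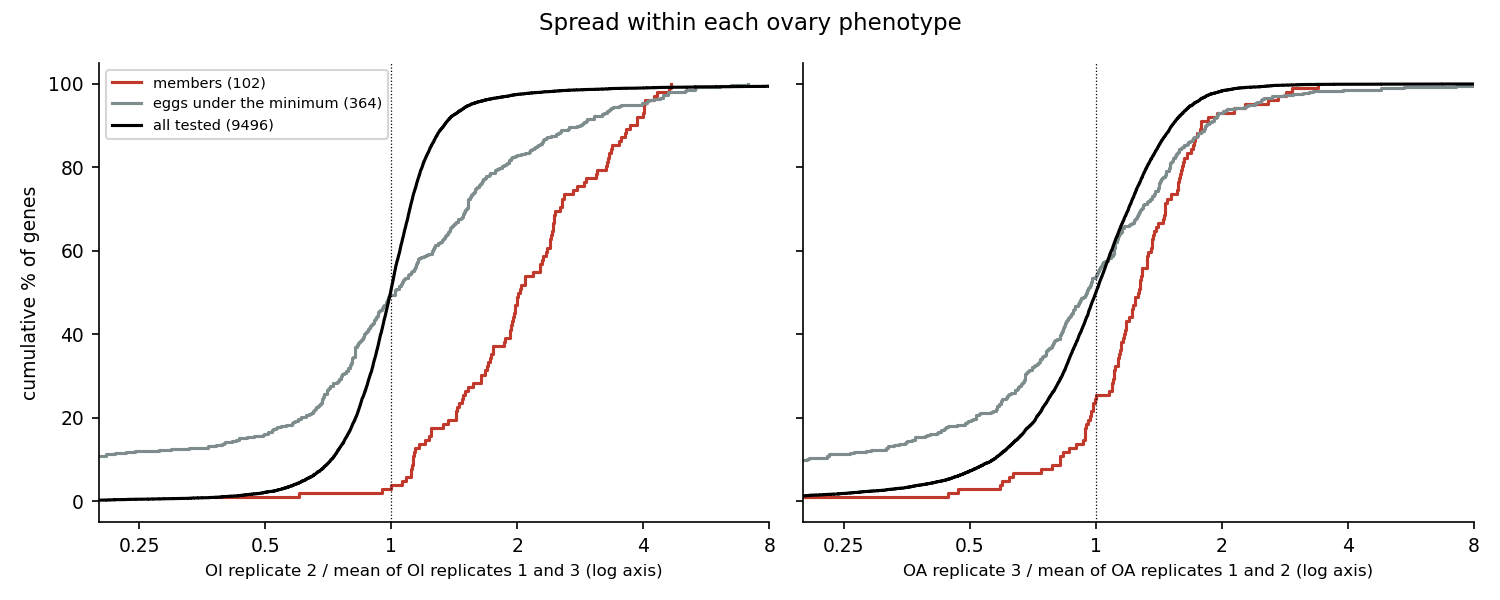
Cumulative percentage of genes (y axis) by the ratio of OI replicate 2 to the mean of OI replicates 1 and 3 in ovary (left, log axis) and of OA replicate 3 to the mean of OA replicates 1 and 2 (right, log axis), for the 102 members, the 364 genes under the egg minimum, and the 9496 genes tested; ratios outside the axes are not drawn. The median of the members lies at 2.02 on the left and 1.27 on the right, and that of all genes tested at 0.995 and 1.001.

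In a few members OA replicate 3 was far above the other OA pools. OA replicate 3 was at least 2 times the mean of replicates 1 and 2 in 7 members (6.86%), against 6.87% of the 364 genes under the egg minimum, 0.628% of the 3819 other genes that met it, and 1.72% of the genes tested. Of these, LOC100645399, LOC100645738, and LOC100645858, were also among the 10 members with the highest egg counts. LOC100645858 had 2112, 2629, and 8049 in OA and 370.9, 630.9, and 83.9 in OI, a ratio of 11.8, and 117093 and 125186 in eggs. LOC100645738 had 2748, 3309, and 8237 in OA and 845.8, 805.7, and 231.5 in OI, a ratio of 7.59, and 100501 and 109624 in eggs. LOC100645399 had 3644, 3791, and 10949 in OA and 1649, 1545, and 480.2 in OI, a ratio of 5.004, and 124821 and 134956 in eggs. All 3 were highest in OA replicate 3 and lowest in OI replicate 3, and in LOC100645399 and LOC100645738 OI replicate 1, not replicate 2, was the highest OI library.

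In the gene order of the RefSeq annotation of assembly iyBomTerr1.2, in which 89 members were placed, these 3 genes lie together. LOC100645738 and LOC100645858 are direct neighbors, and LOC100645399 is separated from them by 2 genes. The surrounding genes were examined after the values of these 3 had been seen. The run of 7 consecutive protein-coding genes from LOC100645277 to LOC100645974 shared the pattern, with OA replicate 3 between 2.47 and 3.40 times the mean of the other OA pools and OI replicate 3 the lowest OI library in each. Egg counts in the run were 24425 or more in both libraries. The 4 genes of the run that were not members fell short of the ovary ratio, with LOC100645616 at 3.39, LOC100645974 at 3.33, LOC100645277 at 2.59, and LOC100645512 at 1.28. The genes directly outside the run, LOC100645155 and LOC100648081, had OA replicate 3 at 1.217 and 0.81 times the other OA pools. LOC100648081 had an ovary ratio of 10.2 but only 68.8 and 4.61 in eggs. Whether genes of the run resemble each other in sequence, so that reads could have been shared between them, was not examined here. Over the whole order, 6 pairs of successive members lay at most 2 genes apart, including the pairs of this run, and 2 of these pairs were direct neighbors.

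**Figure D4:**
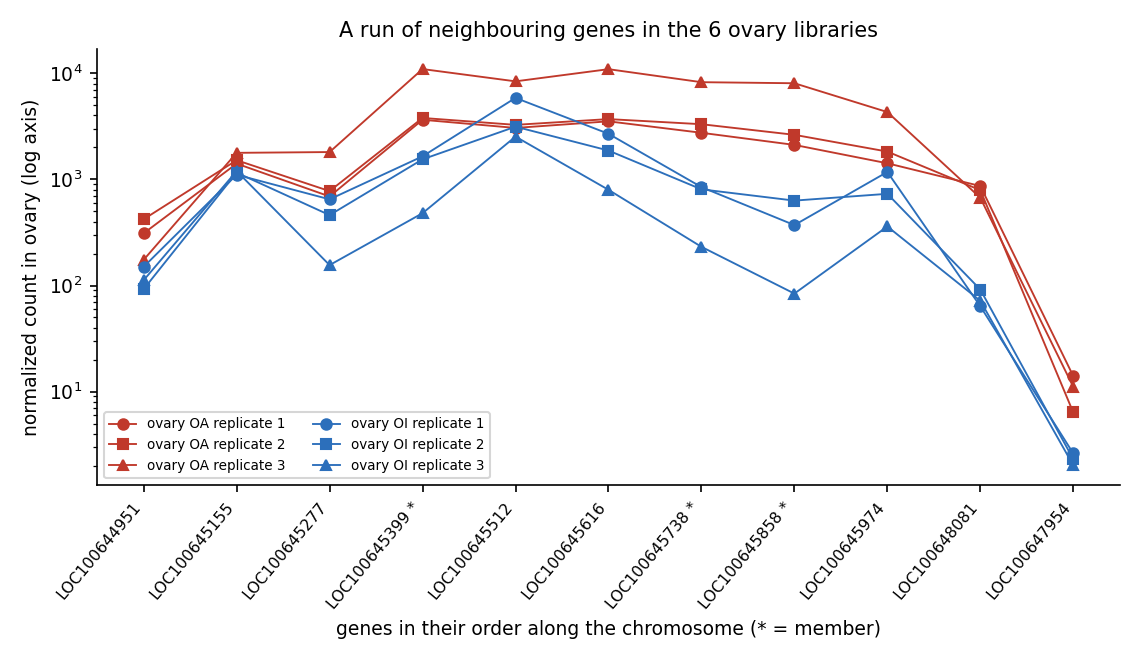
Normalized counts (log axis) in the 6 ovary libraries for 11 protein-coding genes in their order along the chromosome in assembly iyBomTerr1.2, with asterisks at the 3 members. From LOC100645277 to LOC100645974 OA replicate 3 (red triangles) is the highest library and OI replicate 3 (blue triangles) the lowest, as in LOC100645858 with 8049 and 83.9. In LOC100645155, directly before the run, OA replicate 3 is still the highest, at 1778, but OI replicate 3 is not the lowest. In LOC100648081, directly after it, neither holds.

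Brain and fat body levels were not used by the rule as levels. The members were low there more often than other genes of the eggs. In brain, 87 members (85.3%) had a mean of at least 10 normalized counts over the 6 libraries, against 92.9% of the ovary table and 98.6% of the 3819 other genes that met the egg minimum. At a mean of at least 100 the count was 55 members (53.9%), against 82.6% and 96.3%. In fat body, 47 members (46.1%) had a mean of at least 100, against 93.7% of the 3819 genes. These values are not corrected for transcript length. The 364 genes under the egg minimum were lower again, with 37.6% at 100 or more in brain and 29.1% in fat body. These shares are a description, without a test.

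There were 11 members with a mean under 10, or no listing, in both brain and fat body, among them LOC100647204, LOC100645399, LOC100645738, LOC100643900, LOC110120047, LOC100645038, and LOC100650628. At the other end 20 members had a mean of at least 1000 in brain. LOC100646517 had 20353 to 25275 in the 6 brain libraries against 2812 to 3475 in OA and 366.6 to 917.4 in OI ovary, and 23919 and 25391 in eggs. LOC100652140 had 15686 to 22666 in brain, 29870 to 37898 in fat body, and 107654 to 170382 in OA ovary, with an ovary ratio of 7.24. Transcripts found in all tissues and transcripts nearly undetected in brain and fat body were thus both present among the members.

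The brain gave the contrast between OA and OI workers that was independent of the choice of members. Of the 87 members tested in brain, limma called 0 at an adjusted p under 0.05, where 0.0211% of the 9490 genes tested were called higher in OA and 0% higher in OI. At an unadjusted p under 0.05 the counts were also 0 of 87 members and 105 of all genes (1.11%). The lowest adjusted p of a member was 0.9999. The median log2 fold change of the members was -0.02, against 0.01 for all genes tested, and 40 of the 87 were above 0. In 79 members the OA and OI brain means were within 1.5-fold of each other. The smallest unadjusted limma p, 0.0553, was that of LOC100646385, with 102.8, 106.4, and 112.2 in OA brain and 78.1, 84.5, and 93.1 in OI brain (log2 fold change 0.33 ± 0.14, SE). It was the only member in which every OA brain library was above every OI library, against 1.84% of genes, and LOC100646517 and LOC100651180 were the only ones in which every OA library was below, against 2.69%. LOC100646517 had a log2 fold change of -0.19 ± 0.08 (SE). Over the 87 members the brain log2 fold changes ran from -1.38 to 2.01, and over the 102 members those in ovary from 1.80 to 5.10.

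In 3 members OA replicate 2 of brain set the OA mean, at 5 or more times every other brain library and at 100 or more. This was seen after their values were examined. LOC100646942 had 940.3, 543494, and 1286 in OA brain and 7754, 1480, and 871.2 in OI brain. Its log2 fold change was 2.01 ± 2.49 (SE) with all libraries and -0.97 without OA replicate 2. LOC100651336 had 38.9, 2892, and 52.1 in OA and 127.4, 52.6, and 46.6 in OI brain, and its log2 fold change went from 1.41 to -0.58 without that library. The glucose dehydrogenase LOC100643737 had 18.6, 1898, and 22.5 in OA and 63.7, 82.1, and 10.7 in OI brain, and went from 1.27 to -0.89. The same library held 60 genes at 5 or more times every other brain library and at 100 or more, and these 3 were the members among them. LOC100645858 had 64.8 in that library and 0 in the other OA brain libraries. In ovary, the 3 genes had no such pool, with LOC100651336 at 30792, 19532, and 28867 in OA and 3460, 4224, and 4040 in OI.

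**Figure D5:**
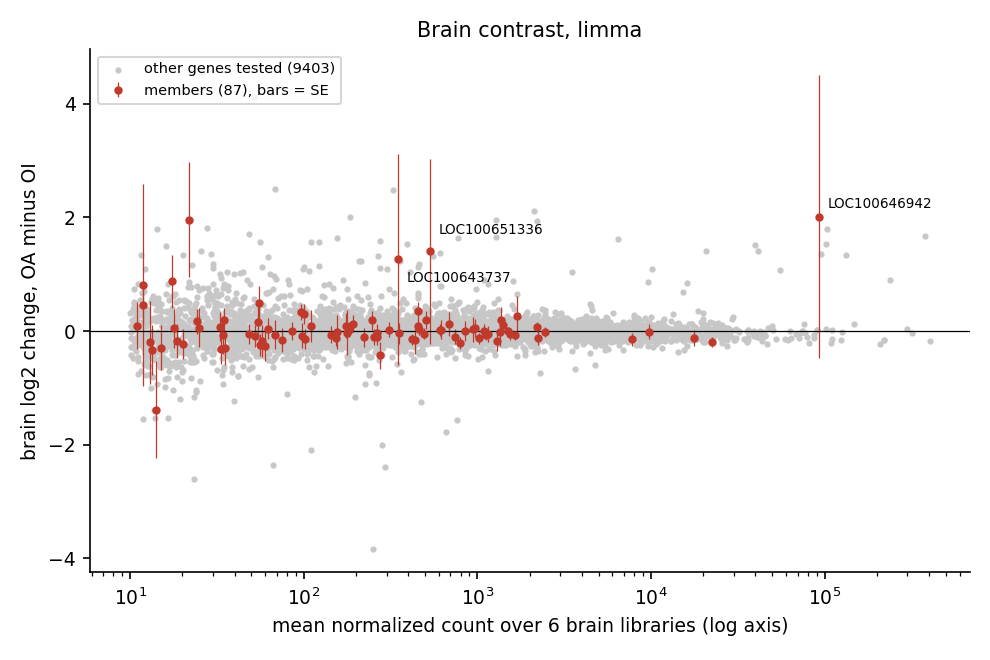
The log2 fold change of OA over OI workers in brain by limma (y axis) against the mean normalized count over the 6 brain libraries (log x axis), with the 87 members tested in red, bars of 1 standard error, and all other genes tested in gray. The members scatter around a median of -0.02. Labels mark the 3 members with at least 100 normalized counts in OA replicate 2 and 5 or more times every other brain library there.

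In fat body the rule set an upper limit on the ratio of OI to OA, so the values are given as they are. Of the 79 members tested, 1 was called higher in OA (0.96% of 8850 genes tested) and 0 higher in OI (1.97%). Every OA library was above every OI library in 13 (15.6% of genes tested) and below in 4 (15.2%). Nothing is read from these counts. The called gene was LOC100646544, with 1001, 346.7, and 640.3 in OA fat body and 30.1, 72.0, and 21.5 in OI fat body, a ratio of 16.1. In ovary it had 2094, 1988, and 3974 against 120.4, 463.7, and 95.0, a ratio of 11.9, and in eggs 16678 and 21773. In brain it had 5.82 to 30.6 with overlapping groups. A fat body OA mean of at least 2 times the OI mean was seen in 4 other members with a mean of at least 10, namely LOC100646687, LOC105666166, LOC100648033, and LOC105666656. In LOC105666166, LOC100648033, and LOC105666656 every OA fat body library was above every OI library. All 4 were at low counts in fat body, the highest value being 67.0 for LOC105666656 in OA replicate 3. This gene, the second and first of the egg libraries, had 15.1, 49.9, and 67.0 in OA and 11.1, 6.85, and 1.72 in OI fat body. Over the 79 members the median log2 fold change in fat body was 0.08.

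The egg libraries were close for most members, though less often than for the other genes that met the egg minimum. The estimated count of replicate 2 was higher in 77 of 102 members, the median log2 ratio of replicate 2 to replicate 1 was 0.19, and 89 members were within 1.5-fold. Of the 3819 other genes that met the egg minimum, 2659 were higher in replicate 2 and 3676 were within 1.5-fold. Their median was 0.11 and their SD 0.29, against an SD of 0.41 for the members. The widest gap was that of LOC100649610, with 13170 and 3150 (log2 ratio of -2.06). With a ratio of 4.06 it was also near the ovary threshold, at 174.1, 275.8, and 286.9 in OA and 64.6, 78.6, and 38.4 in OI ovary. With 2 egg libraries and no second kind of egg, no comparison between groups was possible for the egg values.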

How the data were processed

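Reads of the tissue and egg libraries were pseudoaligned by the authors to the Bter_1.0 transcriptome with Kallisto (version 0.46.1 per the submitters' processing notes) and summed to genes with tximport. The tissue values deposited by the authors are a signal, namely normalized counts from DESeq2 (1.34.0, with R 4.1.3 in the same notes), scaled within each tissue and not corrected for transcript length. The egg values deposited by the authors are estimated counts made with scaledTPM, which are corrected for length and were not normalized between the libraries. Low values stand for few reads. Columns were matched to samples by their labels.

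Members were selected from the deposited values by the rule given in the opening. The members, lists, and tests were chosen with earlier results of these data known. OA and OI workers were compared in each tissue with limma 3.58.1 (R 4.3.3) on the log2 of the normalized count plus 1, with a variance trend, for genes whose mean reached 10, and Benjamini-Hochberg adjustment over all genes tested; log2 fold changes are on this scale, which understates changes of low genes. Replicates are pools, so p-values measure the spread between pools. The fit was tested on simulated counts with the same dispersion for every gene, no outlying pool, and far fewer changed genes than were called in ovary. That test therefore does not cover these features of the data. Alternatives were scaling to totals, TMM (edgeR 4.0.16), a pseudocount of 5, no filter, a replicate block, and leaving out each library. Figures and tables were made with Python 3.11.15, pandas 2.3.3, numpy 2.4.6, and matplotlib 3.10.9.

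The genes named were the 10 members with the highest mean egg count, the 10 with the largest ovary ratio, up to 4 members of each pathway list by egg count, the 3 genes on either side of each threshold, and the 3 members with the highest brain mean; others were named after their values were seen. Gene names came from the supplementary tables held here, which cover 2219 genes. The RefSeq annotation of iyBomTerr1.2, another build than that of the files, served only for gene order. No sequences were analysed here.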

Additional observations from a re-analysis of the deposited data

How the results depend on the processing

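The number of members depended on the choices in the rule. It was 596 with an ovary ratio of at least 2 and 25 with at least 8, and 61 with ovary and fat body libraries scaled to their totals, all 61 of them among the 102. Leaving out each ovary library in turn gave 90 to 192 members. The highest, 192, came without OI replicate 2, where the condition on that replicate does not apply, and included all 102, and the lowest, 90, without OA replicate 3, kept 83 of them. The fewest of the 102, 76, were kept without OI replicate 3, among 122 members. Egg minimums of 1000 and 4000 moved the count by less than 1.5 times. In fat body, 3 members were called with libraries scaled to their totals and 2 without the filter, against 1, and leaving out single libraries gave 1 to 2, with 2 without OI replicate 3. In brain, 0 members were called under each of the 11 alternatives, and 55 rather than 87 members passed a mean of 100 in place of 10. The brain log2 fold changes of LOC100646942 (-0.97), LOC100651336 (-0.58), and LOC100643737 (-0.89) turned negative without OA replicate 2. Leaving out single libraries gave -0.97 to 3.62, -0.58 to 2.51, and -0.89 to 2.41 for these genes. With egg counts divided by their library totals the median log2 egg ratio was 0.13. The study matched OA and OI pools for age, but which replicate numbers were matched is not known here. Deviations of same-numbered pools correlated at -0.24 to 0.25 over the 3 tissues, and those of other pools at -0.38 to 0.34. The numbers were not taken as pairs, and whether other pools were pairs was not tested. A block on the replicate number may therefore not follow the age matching. With a replicate block, the members called numbered 0 (brain), 1 (fat body), and 102 (ovary), and 2086 and 2096 genes were called in ovary in place of 2592 and 2531, 32 and 31 in fat body in place of 85 and 174, and 0 in brain in place of 2. Low brain and fat body values, 2 egg libraries, and 3 pools per group limit what could be seen.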
